A study of Mus musculus with 28 samples.

Results

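LKB1 (Stk11) and its activating partners, the STRAD pseudokinases (Strada, Stradb) and the MO25 scaffolds (Cab39, Cab39l), were taken by gene symbol from the array annotation. The 5 genes had 6 probes, among 25697 probes and 16593 genes on the array. A probe was interpreted where its deposited intensity was over 24 in at least 7 of 28 samples. The rule left 4 probes of 3 genes: 1 of Stk11, 2 of Stradb and 1 of Cab39l.

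RNA came from the calf complex (gastrocnemius, plantaris and soleus together) of female FVB mice aged 4 months and was hybridised to Illumina expression BeadChips. There were 4 groups of 7 samples, since wild-type and knockout muscle was each sampled at rest and after contraction. The knockout lacks LKB1 specifically in skeletal muscle, and the driver of the deletion and the deleted exons are not given in the sources used here. Contraction was evoked in place through the sciatic nerve for 15 min, and the muscle was taken directly afterwards. All groups shared strain, sex, age and tissue. The labels do not say that the samples came from separate animals, so the spread behind each p-value is that among these samples and may be partly technical.

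As background, LKB1 is a serine/threonine kinase that is weakly active and largely nuclear by itself. A STRAD pseudokinase binds it and switches on its catalytic activity without phosphorylating it, and MO25 (encoded by Cab39 and Cab39l) holds the trimer together. The active complex phosphorylates the activation loop of AMPK and of the AMPK-related kinases. In mouse skeletal muscle it is known as the main activator of the AMPK complexes that hold the α2 subunit during contraction.

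The tissue label was checked against defining genes. Of 12 muscle fibre marker genes 11 had a probe, all 11 passed the intensity limit, and their summed intensity ranged from 205900 to 302300 over the 28 samples. The summed slow-fibre genes ranged from 112300 to 205200 in 25 samples and stood apart in the other 3. These were wild type contracted replicate 4 at 33440, knockout resting replicate 4 at 20990 and knockout contracted replicate 4 at 56290. Lymphocyte markers summed to between 325.5 and 3605 in 9 samples and to at most 41.82 in the others, with Cd4, Cd8a, Ms4a1 and Cd22 below the limit. The 9 samples were resting wild type 4 and 5, contracted wild type 7, resting knockout 1, 2 and 4, and contracted knockout 1, 2 and 5. Macrophage markers summed to between 4539 and 7081 in 4 samples, replicates 2 and 5 of both knockout groups, and to at most 2973 in the others. Of the 7 macrophage genes 4 passed the limit, with Adgre1 below it. In contracted knockout replicates 2 and 5 were also the highest in adipocyte markers, at 5627 and 7608 against at most 1615. Of the 5 adipocyte genes 3 passed, with Fabp4 below the limit.

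Stk11 transcript was present at a reduced level in knockout muscle and was not found at 0 in any sample. The intensity of its probe (ILMN_2591570) in wild type at rest was 1019 at the lowest, 1152 at the median and 1514 at the highest. In knockout at rest the lowest was 300.7, the median 452.3 and the highest 562.8. The lowest wild-type sample at rest lay above the highest knockout sample, so the groups did not overlap. The mean was 1213 ± 181 (SD, n = 7) in wild type and 431 ± 111 (SD, n = 7) in knockout, which left 35.6% of the wild-type mean. The log2 difference of the background-corrected intensities was -1.36 (SE 0.12, 95% interval -1.62 to -1.11, limma adjusted p = 1.42e-07), a fold of 0.389. In the exact two-sided permutation test p was 0.000583, the smallest that 7 samples against 7 allow. In whole muscle, fewer cells of a type and less RNA per cell cannot be told apart. Of the 11 muscle fibre markers, 0 were called in this comparison (median log2 difference -0.06), where 3.62% of all genes were called. A count of 0 among 11 is near that share and does not tell the 2 apart. The knockout is specific to skeletal muscle, so other cell types in the tissue keep Stk11. Their part in the remaining signal was not tested. The position of the probe with respect to the deleted sequence is also not given in the sources used here.

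After contraction the contrast was of similar size. Stk11 intensity in contracted wild type ran from 1018 over a median of 1375 to 1406, and in contracted knockout from 335.3 over 402.2 to 554.1. Again every knockout sample lay below every wild-type sample. The means were 1324 ± 137 and 429 ± 77.9 (SD, n = 7 each), or 32.4% of wild type. The log2 difference was -1.48 (SE 0.12, 95% interval -1.73 to -1.22, limma adjusted p = 2.2e-08, fold 0.359). Stk11 had the smallest p of all 11723 tested probes in both genotype comparisons. By size of the decrease it ranked 4 at rest and 2 after contraction.

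**Figure D1:**
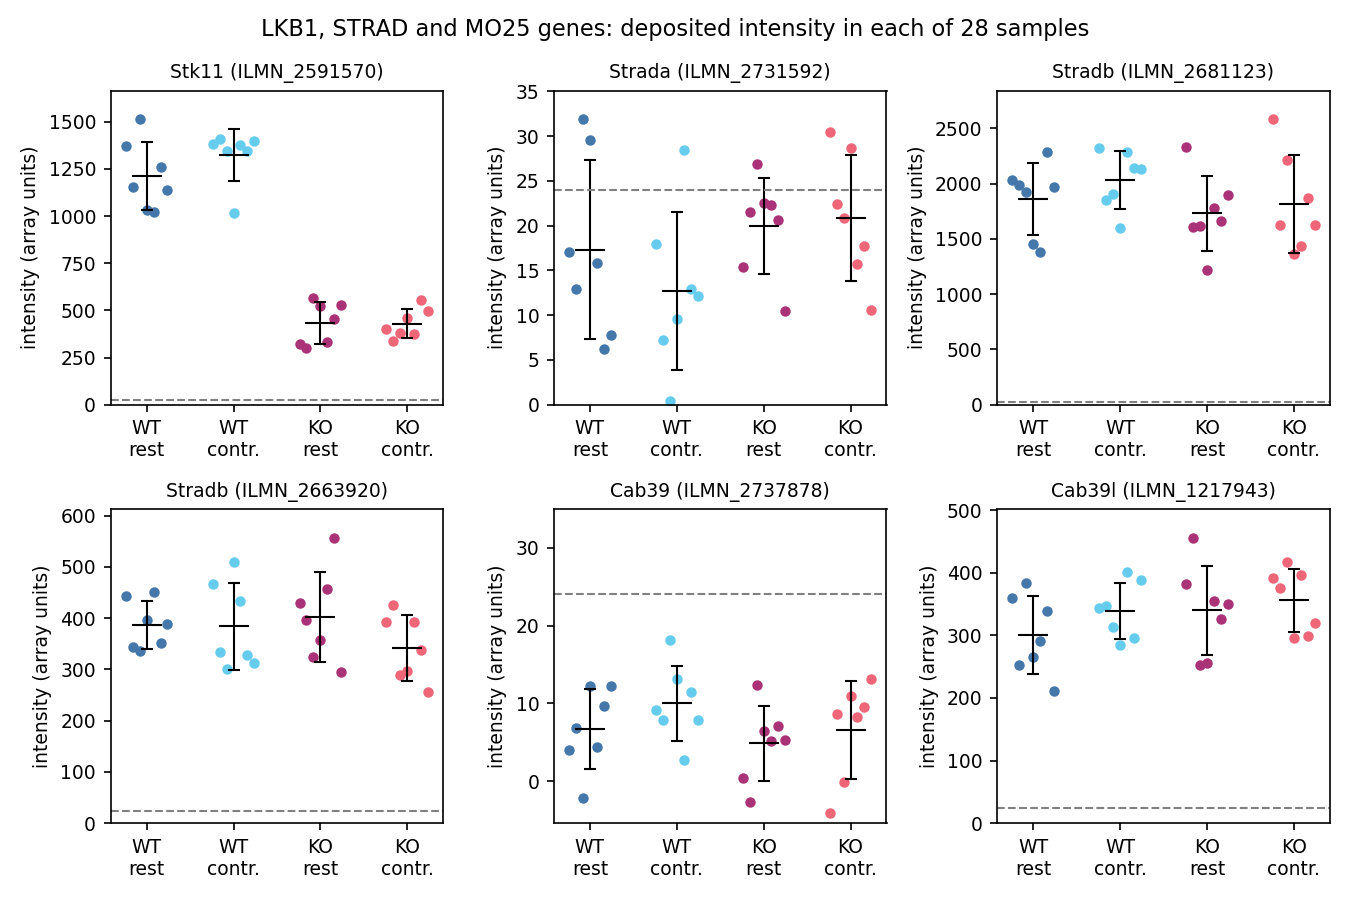
Deposited intensity (array units, linear axis with its own range in each panel) of all 6 probes in every sample, by group; WT is wild type and KO the muscle-specific LKB1 knockout, points are samples, bars are the mean ± SD (n = 7), and the dashed line is the limit of 24. Stk11 samples of the knockout, at most 562.8, all lie below the wild-type samples, whereas the groups overlap for Stradb and Cab39l, and most or all samples of Strada and Cab39 lie below the limit.

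Among the 4 interpreted probes, 1 was called in the resting genotype comparison, lower in knockout, against 3.43% of all tested probes called and 1.56% called lower. After contraction again 1 of 4 was called, lower in knockout, against 7.86% called and 3.76% called lower. Groups that did not overlap, with knockout lower, were found for 0.358% of tested probes at rest and 0.631% after contraction. The genotype was defined by Stk11, so its decrease checks the labels, and the samples of both knockout groups went with their genotype label.

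The remaining Stk11 signal varied among knockout samples more, in relative terms, than the wild-type signal did. The coefficient of variation was 25.7% in resting and 18.2% in contracted knockout, against 14.9% and 10.4% in wild type. The 10.4% of contracted wild type rested on replicate 4, without which it was 1.96%. In contracted knockout the coefficient was 14.8% without replicate 6, close to that of resting wild type. A larger value in knockout was not particular to Stk11. The Stradb probe ILMN_2681123 had 19.5% and 24.3% in resting and contracted knockout, against 17.5% and 12.8% in wild type. The Stradb probe ILMN_2663920 was lower in contracted knockout (18.8% against 22%). These differences in spread were not tested. In resting knockout, replicates 1, 2 and 5 lay between 301 and 332 and replicates 3, 4, 6 and 7 between 452 and 563. Replicates 2 and 5 also had the highest summed macrophage markers of that group (4539 and 4847) and the highest adipocyte markers (3247 and 3198), and replicate 5 the highest fibroblast markers (20120). Replicate 1, with a Stk11 intensity of 324, did not share this. Its macrophage sum was 1693, and its adipocyte (166) and fibroblast (8625) sums were the lowest of the group. In contracted knockout the lowest sample was replicate 2 at 335 and the highest replicate 6 at 554, and replicates 2 and 5, highest in macrophage markers, were at 335 and 373. The part of these other cells in the Stk11 values was not tested.

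The libraries that stood apart were then left out in turn. The contracted wild-type replicate 4, which was low in slow-fibre genes, had the lowest Stk11 intensity of its group at 1018, with the other 6 samples between 1343 and 1406. The resting and contracted knockout replicates 4, also low in slow-fibre genes, had Stk11 intensities of 521 and 459, inside the ranges of their groups. Without these 3 samples the Stk11 difference was -1.41 at rest and -1.55 after contraction. Without the 9 samples high in lymphocyte markers it was -1.34 in both states, with limma adjusted p-values of 7.23e-05 and 1.85e-05. Without the 4 knockout samples high in macrophage markers it was -1.23 at rest and -1.39 after contraction (limma adjusted p = 1.61e-06 and 1.25e-07).

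**Figure D2:**
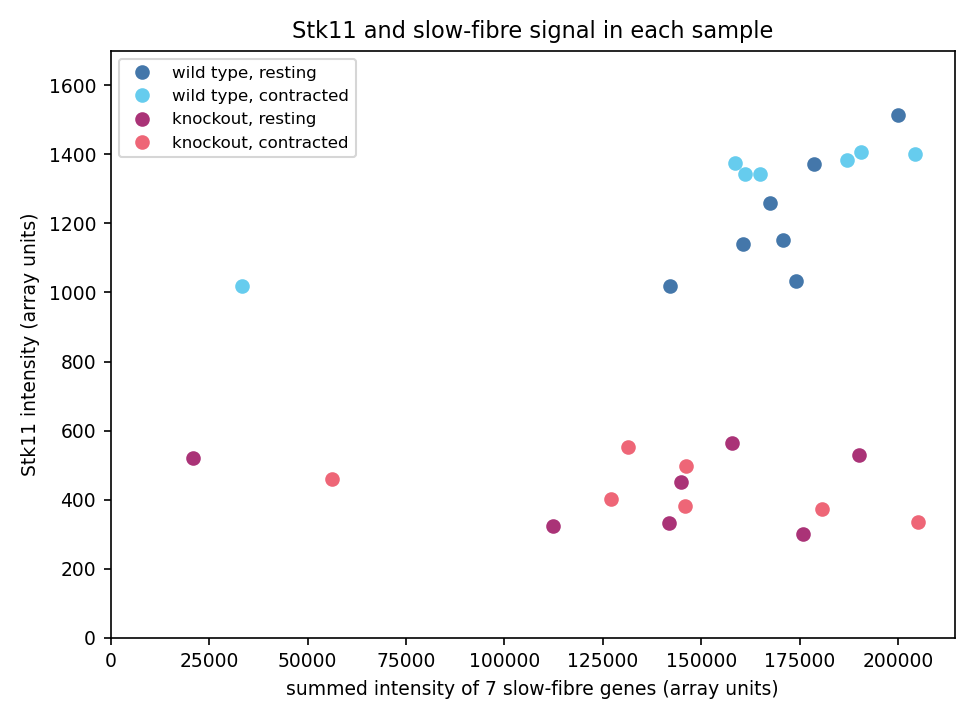
Stk11 intensity (array units, vertical axis) against the summed intensity of 7 slow-fibre genes (array units, horizontal axis) in each of the 28 samples, coloured by group. The 3 samples left of the main cloud are the replicates 4 with sums of 33440, 20990 and 56290, and knockout samples lie below wild-type samples at every sum.

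Stradb (STRAD beta) was measured by 2 probes, and neither was called by genotype. For the brighter probe (ILMN_2681123) resting intensity was lowest at 1381, with a median of 1967 and a highest value of 2285 in wild type, and 1222, 1662 and 2330 in knockout. After contraction it was 1594, 2130 and 2322 in wild type and 1366, 1625 and 2583 in knockout. Groups overlapped in both states, and replicate 1 was the highest knockout sample in each. The log2 difference was -0.10 (95% interval -0.39 to 0.18, limma adjusted p = 0.695) at rest and -0.18 (95% interval -0.46 to 0.11, adjusted p = 0.435) after contraction. These intervals leave room for a fold as low as 0.765 at rest and 0.727 after contraction, and do not show that the level was the same.

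The other Stradb probe (ILMN_2663920) averaged 387 ± 46.7 in wild type and 402 ± 88.6 in knockout at rest (SD, n = 7 each). After contraction it averaged 384 ± 84.2 in wild type and 342 ± 64.2 in knockout. Its genotype differences were 0.03 (95% interval -0.22 to 0.28) and -0.13 (95% interval -0.38 to 0.12), with limma adjusted p-values of 0.902 and 0.514. The 2 Stradb probes did not follow each other across samples. Their Pearson r within the 4 groups of 7 was -0.55, -0.11, 0.14 and 0.11, with Spearman's rho of -0.32, 0.04, 0.14 and 0.21, in the order wild type resting, wild type contracted, knockout resting, knockout contracted. The exact permutation p-values of r were 0.207, 0.83, 0.796 and 0.812, and those of rho 0.498, 0.963, 0.783 and 0.662. Without the 2 samples farthest from the median of the brighter probe, r was -0.03, 0.86, -0.33 and 0.03. Which transcripts each probe reports was not examined here.

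Cab39l (MO25 beta) was likewise not called by genotype. Its intensity at rest was lowest at 211, with a median of 290.8 and a highest value of 383.8 in wild type, and 253, 349.8 and 456.4 in knockout. After contraction the values were 283.7, 343.8 and 400.8 in wild type and 296, 375.7 and 417 in knockout. All groups overlapped, and the knockout mean was the higher in both states. The log2 difference was 0.14 (95% interval -0.09 to 0.37, limma adjusted p = 0.48) at rest and 0.06 (95% interval -0.17 to 0.29, adjusted p = 0.785) after contraction. A decrease like that of Stk11 lay outside the intervals of all 3 partner probes.

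**Figure D3:**
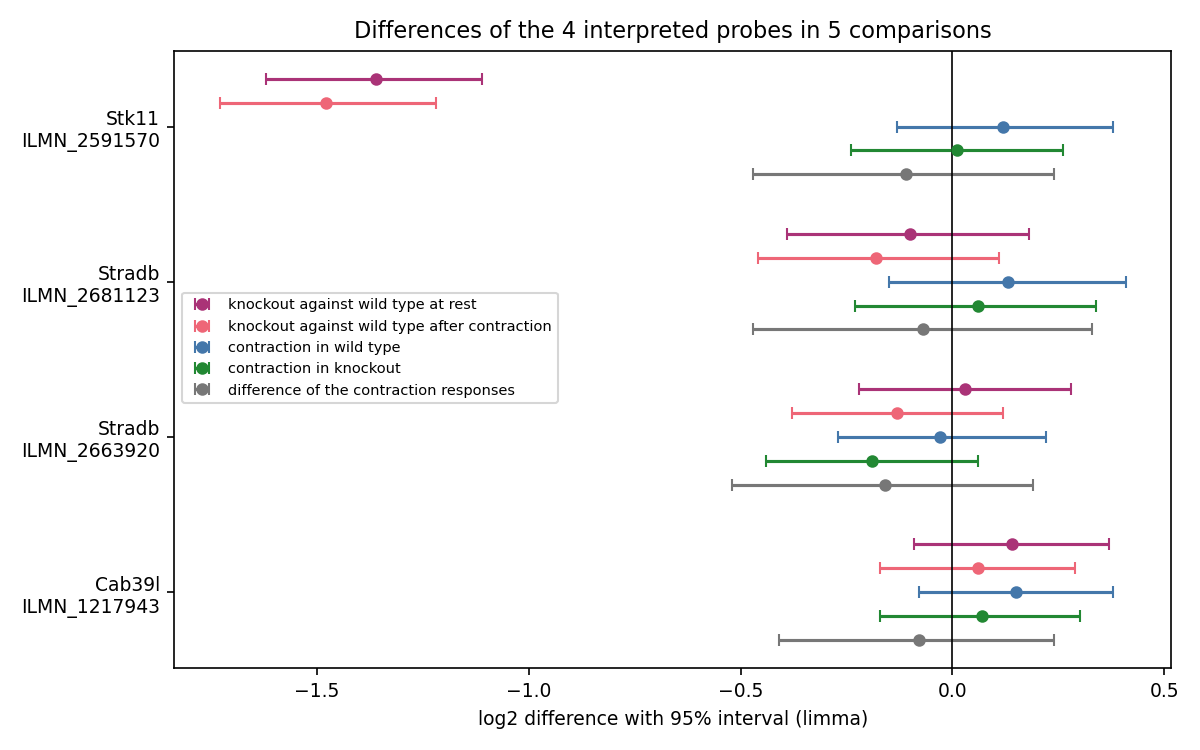
Log2 difference of each interpreted probe in the 5 comparisons (horizontal axis, log2 units), with points for the estimate and bars for the 95% interval from limma, fitted without the knockout pairs. The Stk11 intervals of both genotype comparisons end at -1.11 or below, and every other interval includes 0.

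The level of Stk11 relative to each partner was also compared between genotypes within samples, as a log2 difference of the 2 probes. Relative to the brighter Stradb probe, Stk11 was lower in knockout by a change of -1.26 at rest and -1.30 after contraction. Relative to the other Stradb probe the changes were -1.39 and -1.35. Relative to Cab39l they were -1.51 and -1.54. In these 6 comparisons, which share the Stk11 values, knockout and wild-type samples did not overlap, and each exact permutation p was 0.000583 (0.000583 after adjustment over the 6). The genotype was defined by Stk11, whose own values did not overlap, so these ratios restate its decrease and do not test the partners. Stk11 was lower in knockout while no interpreted partner probe was called, and protein was not measured.

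Strada and Cab39, the other forms of each partner, were too dim to interpret. The Strada probe (ILMN_2731592) was over 24 in 6 of 28 samples, 1 short of the rule, with intensities from 0.46 to 31.87 and a median of 17.3. The Cab39 probe (ILMN_2737878) was over 24 in 0 of 28 samples, with intensities from -4.17 to 18.15 and a median of 7.82. On the 7 resting wild-type arrays for which detection p-values could be assigned, Strada had p below 0.05 on 2 (range 0.0301 to 0.264) and Cab39 on 0 (range 0.154 to 0.585). All 4 interpreted probes were over the limit in all 28 samples, and the dimmest value among them was 211. A dim probe does not show that a transcript is absent.

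Contraction for 15 min was followed by no called change of any interpreted probe, and the percentage of all tested probes called was 0 in wild type and 0.00853 in knockout. At an unadjusted p under 0.05, limma gave 0 of the 4 probes in either genotype, beside 139 of 11723 probes (1.19%) in wild type and 211 (1.8%) in knockout. Both shares lie under the 0.05 that the threshold alone would give if nothing changed. This fit did not use the knockout pairs and may be too conservative for contraction, which was not tested. Stk11 differed by 0.12 (95% interval -0.13 to 0.38) in wild type, where the exact permutation p was 0.222, and by 0.01 (95% interval -0.24 to 0.26) in knockout, where it was 0.952. By mean deposited intensity the order for Stk11 was contracted wild type, resting wild type, resting knockout and contracted knockout, and neighbours of the same genotype did not differ beyond their spread.

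The partners gave the same counts. The brighter Stradb probe differed after contraction by 0.13 (95% interval -0.15 to 0.41) in wild type and 0.06 (95% interval -0.23 to 0.34) in knockout. The other Stradb probe differed by -0.03 (95% interval -0.27 to 0.22) in wild type and -0.19 (95% interval -0.44 to 0.06) in knockout, where its exact permutation p was 0.17. Cab39l differed by 0.15 (95% interval -0.08 to 0.38) and 0.07 (95% interval -0.17 to 0.30). None of these 6 differences passed the test, and all 6 intervals of this fit included 0. The contraction intervals and exact permutation p-values given so far did not use the knockout pairs. With the pair as a block, the SE of the other Stradb probe in knockout was 0.08, against 0.12 here.

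Resting and contracted knockout samples with equal replicate numbers were taken as pairs from their correlation, since the labels do not give pairs. The members were then followed pair by pair. Stk11 was higher after contraction in 4 of 7 pairs, with a mean difference of 0.01 ± 0.27 (SD). The brighter Stradb probe was higher in 5 of 7 pairs and Cab39l in 4 of 7. The other Stradb probe was lower in 6 of 7 pairs, with a mean of -0.19 ± 0.21 (SD), and limma on the 14 knockout samples with the pair as a block gave it an unadjusted p of 0.0407 and an adjusted p of 0.719. The response to contraction was also compared between genotypes, in the 4-group fit that did not use the knockout pairs. Its difference (knockout minus wild type) was -0.11 (95% interval -0.47 to 0.24) for Stk11, -0.07 and -0.16 for the Stradb probes, and -0.08 for Cab39l. In limma 0 of the 4 passed, as did 0% of all tested probes. At an unadjusted p under 0.05 there were 72 of 11723 probes (0.614%).

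The members' relations across samples were computed within each group, for 6 pairs of probes in 4 groups. None of the 24 passed Benjamini-Hochberg adjustment (smallest adjusted p 0.271), and 3 had an unadjusted p under 0.05, all of them between Stk11 and Cab39l. For this pair Pearson's r was 0.74 in resting and 0.65 in contracted wild type and -0.84 in resting and -0.83 in contracted knockout (n = 7 each, exact permutation p = 0.0619, 0.0339, 0.0133 and 0.0335). Spearman's rho was 0.68, 0.75, -0.89 and -0.64 in the same order, with exact permutation p-values of 0.11, 0.0663, 0.0123 and 0.139. Without the 2 samples farthest from the group median of Stk11, r was 0.26, 0.50, -0.65 and -0.70. The sign was thus positive in both wild-type groups and negative in both knockout groups, in relations that did not pass adjustment, and resting and contracted knockout samples were taken as paired.

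As a description, the probes most like each member over the 28 samples were listed by Pearson's r of log2 intensity, where the points share arrays and genotype. For Stk11 these were Snai3 (r = 0.94), Fn3k (0.91), Kcnc1 (0.90), Txnrd2 (0.90) and Fbxo44 (0.90). After each group's mean was removed, the list for Stk11 became St3gal3 (0.85), Eef1a2 (0.84), Eftud2 (0.84), Tmbim6 (0.83) and Sbf1 (0.82), with no gene in common. For the brighter Stradb probe the highest were Opa3 (0.82), Flot2 (0.79), Rrm1 (0.79), Ears2 (0.78) and Cdc34 (0.78). With group means removed they were Cdc34 (0.83), Slc39a13 (0.83), Opa3 (0.82), Atg5 (0.81) and Ears2 (0.81). For Cab39l they were Bcl9l (0.89), Slc35c2 (0.87), Mapk14 (0.87), Clptm1 (0.87) and Nabp2 (0.86), and with group means removed Tpcn1 (0.87) and Ap2a1 (0.87) took the place of the last 2.

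The genes around the complex were examined as 38 genes in 5 lists, of which 22 had an interpretable probe. Of the others, 10 had only dim probes and 6 had no probe under their symbol. At rest 1 of the 22 genes was called, lower in knockout (4.55%), against 3.62% of all 8389 genes called and 1.84% called lower. After contraction 3 of 22 were called, all lower (13.6%), against 8.36% of all genes called and 4.14% called lower. The median log2 difference of the 22 genes was -0.08 in both states, against -0.01 for all genes. None of the 22 was called on contraction in wild type, on contraction in knockout or in the difference between genotypes, where 0%, 0.0119% and 0% of all genes were. At an unadjusted p under 0.05 limma, without the pairs, gave 0 in wild type, 1 in knockout (Camkk2) and 0 in the difference. Of the 8389 genes it gave 89 (1.06%), 171 (2.04%) and 54 (0.644%), again under a share of 0.05.

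Of the 14 kinases whose activation loop LKB1 phosphorylates, 9 could be tested and 0 were called in either state. At an unadjusted p under 0.05 limma gave 0 at rest and 1 after contraction, the AMPK-related kinase Snrk, against 21.8% and 26.3% of all genes. The median difference of the 9 was -0.05 at rest and 0.01 after contraction. Snrk differed by -0.48 (adjusted p = 0.311) at rest and -0.64 (95% interval -1.20 to -0.08, adjusted p = 0.137) after contraction, and its other interpretable probes by -0.34 and -0.23 at rest and by -0.54 and -0.13 after contraction. Prkaa2, the catalytic α2 subunit of AMPK, differed by -0.13 (adjusted p = 0.706) and -0.31 (adjusted p = 0.279), and by -0.62 (adjusted p = 0.23) and -0.78 (adjusted p = 0.0991) on its second probe. Mark2, which acts on microtubule-associated proteins, differed by -0.36 and -0.40 (adjusted p = 0.408 and 0.314), while its second probe had the opposite sign (0.25 and 0.27). In these kinases the transcript differences did not pass the test, and phosphorylation was not measured.

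The regulatory subunits of AMPK, which form a complex with the catalytic subunit, could be tested for 4 of 5 genes. None was called at rest, where limma gave 1 at an unadjusted p under 0.05 (Prkag1). In contracted knockout muscle 2 of the 4 were called lower, against 4.14% of all genes. Prkab2, the β2 scaffold subunit, had intensities of 379 at the lowest, 560 at the median and 706 at the highest in contracted wild type, and 178, 313 and 564 in contracted knockout. Its difference was -0.71 (SE 0.17, limma adjusted p = 0.0108), and the groups overlapped. At rest it was -0.30 (adjusted p = 0.302). Prkag1, the γ1 nucleotide-binding subunit, had 559, 891 and 948 in contracted wild type and 517, 582 and 811 in contracted knockout. Its difference was -0.41 (SE 0.11, adjusted p = 0.0185), and at rest -0.25 (adjusted p = 0.174). The call of Prkag1 was lost without contracted knockout replicate 1 (adjusted p = 0.0519) and when only the compared groups were fitted (adjusted p = 0.0512). Prkag2, another γ subunit, differed by 0.16 (adjusted p = 0.365) at rest and -0.07 (adjusted p = 0.693) after contraction. Its probe was close to the limit, where the background correction shrinks differences. The deposited knockout mean was 177% of wild type at rest and 76% after contraction.

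Among regulators and interactors of LKB1, Prkcz, the atypical protein kinase C zeta, which has been described to phosphorylate LKB1 in other cells, was lower in knockout in both states. Its brighter probe (ILMN_3158919) had intensities of 58.6 at the lowest, 92.4 at the median and 190 at the highest in resting wild type, and 26.8, 40.4 and 52.2 in resting knockout. These groups did not overlap, which held, with knockout lower, for 0.358% of all tested probes at rest, and the knockout mean was 38.0% of wild type. The difference was -0.59 (SE 0.12, limma adjusted p = 0.00804) at rest and -0.62 (SE 0.12, adjusted p = 0.00314) after contraction, where the groups overlapped (lowest wild-type sample 49.2, highest knockout sample 63.1). With the background correction left out and values floored at 24 it was -1.33 and -1.41. The second interpretable Prkcz probe differed by -0.19 (adjusted p = 0.501) and -0.27 (adjusted p = 0.299) and was not called, so the decrease rests on 1 probe. The deacetylase gene Sirt1 differed by 0.22 at rest (adjusted p = 0.324) and the tyrosine kinase gene Fyn by -0.21 after contraction (adjusted p = 0.183). The Fyn probe was close to the limit (mean log2 intensity 6.74 in contracted wild type, 6.53 in contracted knockout), where the background correction shrinks differences. Its deposited knockout mean was 50.8% of wild type. Prkaca, a catalytic subunit of protein kinase A, differed by -0.10 and -0.21 (adjusted p = 0.683 and 0.29), with 0.06 and 0.07 on its second probe.

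These calls were also examined without the 9 samples high in lymphocyte markers. Without them 0 of the 22 genes were called at rest and 1 after contraction, Snrk. Prkcz then differed by -0.60 at rest and -0.59 after contraction (adjusted p = 0.13 and 0.0538), Prkab2 by -0.52 (adjusted p = 0.066) and Prkag1 by -0.38 (adjusted p = 0.115). The differences kept their sign with fewer samples, and the SE of Prkcz was 0.17 in each state, against 0.12 with all samples. Whether the calls were lost through the markers or through fewer samples was not tested. Without the 4 knockout samples high in macrophage markers 2 genes were called at rest (Prkcz and Snrk) and 4 after contraction (Prkab2, Prkag1, Prkcz and Snrk). Of 4 tested macrophage markers 1 (Mrc1), and of 6 fibroblast markers 1 (Lum), were called higher in contracted knockout, against 4.22% of all genes. With so few markers these calls are no result about the cells. Summed macrophage markers reached 7081 in contracted knockout and 2016 in contracted wild type, with lows of 776.4 and 596.7. The part of these cells in the results was not tested.

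The upstream kinase Camkk2, which activates AMPK independently of LKB1, differed by -0.11 (adjusted p = 0.547) at rest and 0.12 (adjusted p = 0.452) after contraction, and by 0.13 and 0.08 on its second probe. On contraction Camkk2 differed by -0.01 in wild type and 0.22 in knockout (limma unadjusted p = 0.0355, not called). Its second probe then differed by 0.09 and 0.04. MO25 also binds and activates STE20-family kinases, and 4 of the 5 listed could be tested. None of the 4 was called in limma, with 0 at an unadjusted p under 0.05 at rest and 1 after contraction (Stk25), against 21.8% and 26.3% of all genes. Their medians were -0.08 and -0.06. Stk39, which controls cation chloride cotransporters, differed by -0.15 at rest and 0.05 after contraction (adjusted p = 0.417 and 0.814). Stk24 differed by -0.11 and -0.09 (adjusted p = 0.467 and 0.555), and Stk25, a Golgi-associated kinase, by -0.06 and -0.28 (adjusted p = 0.80 and 0.153), with 0.16 and -0.16 on its second probe.

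**Figure D4:**
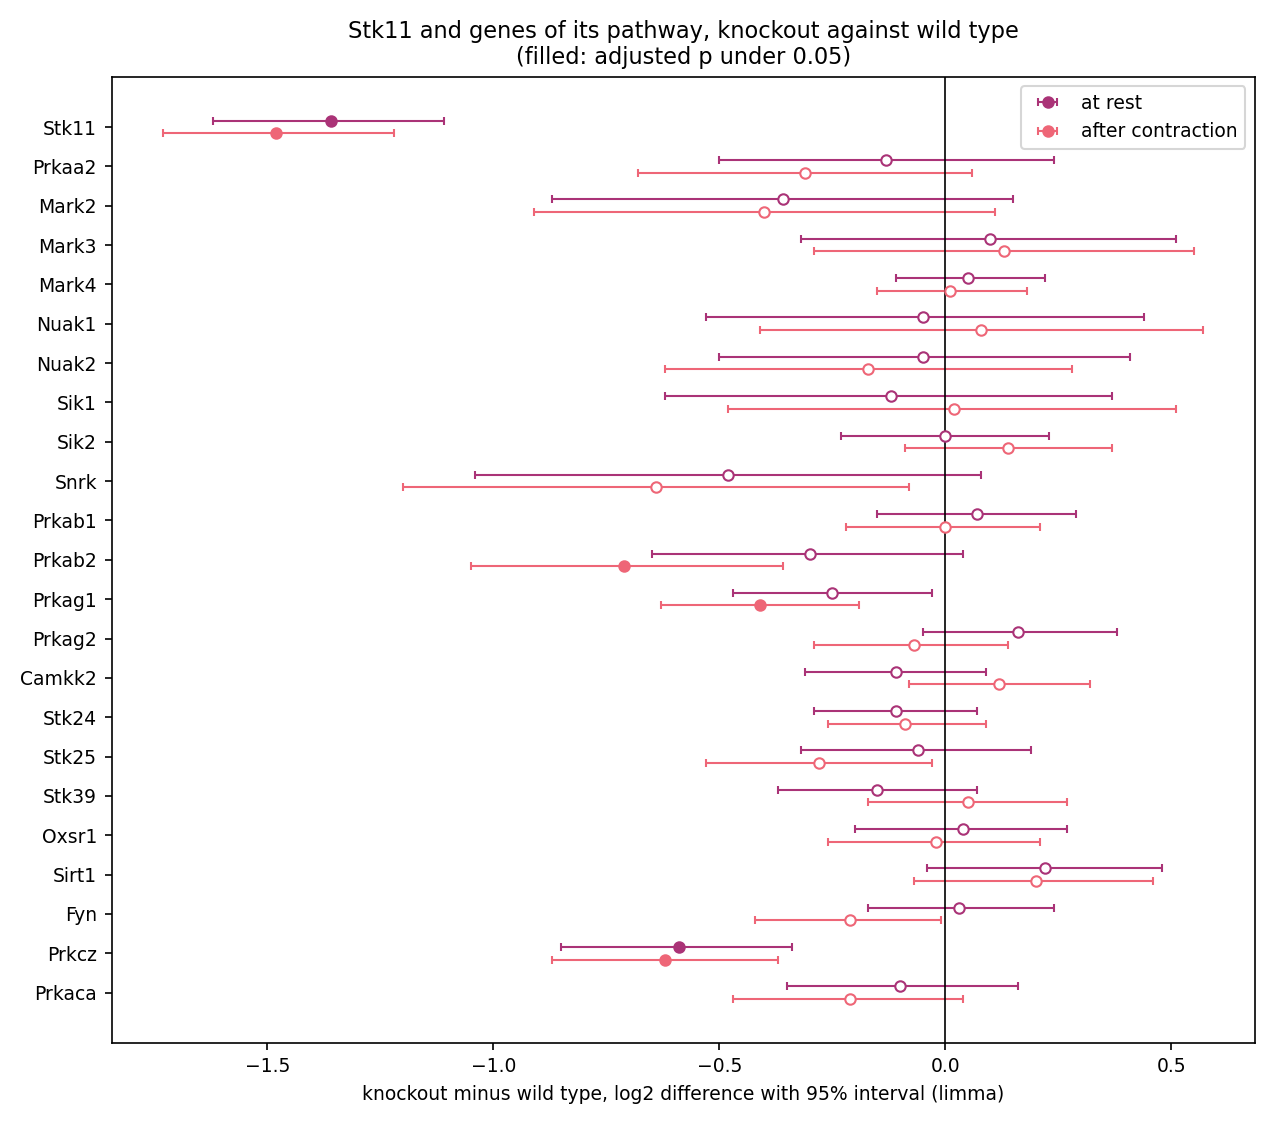
Log2 difference between knockout and wild type (horizontal axis, log2 units) of Stk11 and the 22 listed genes with an interpretable probe, at rest and after contraction, grouped by list, with points for the estimate of the brightest probe and bars for the 95% interval. Filled points mark the called genes, which are Stk11 and Prkcz at rest, and Stk11, Prkab2, Prkag1 and Prkcz after contraction, all lower in knockout.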

How the data were processed

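The authors deposited probe intensity values on a linear scale for 28 arrays, from -36.1 to 50215 with 27.2% below 0, so a background had been subtracted before deposit. The submitters' processing notes list limma 3.1, lumi 3.0 and R 3.1.2 without saying what each did. Another deposited table gives, per the file headers, intensities before normalization with a detection p-value beside each. Its column numbers match the sample labels only for the 7 resting wild-type arrays, and 42 other per-sample columns were not used. On those 7 arrays probes at a detection p-value of 0.05 had a median normalized intensity of 24.9, close to the limit of 24 used here, and 36.0% to 43.1% of probes were detected.

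Intensities were corrected with limma's normexp (offset 50), which shrinks differences of dim probes, and set on a log2 scale. Percentages of the wild-type mean use the deposited intensities. The 11723 probes over the limit in at least 7 of 28 samples were fitted with a mean for each of 4 groups (limma 3.58.1 in R 4.3.3, lmFit and eBayes, 24 residual degrees of freedom; jsonlite 2.0.0 read the labels). Benjamini-Hochberg adjustment ran over all of them, and an adjusted p under 0.05 was called. The median SE of a group difference was 0.13, and the number of arrays limits the precision. The fit was tested on simulated data.

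A listed gene was represented by its brightest interpreted probe. Named genes are the members, every listed gene called in a comparison, and the 3 of each list with the smallest p in each genotype comparison, besides the 5 probes most like the brightest probe of each member. Members and lists were chosen with earlier results of these data known. The annotation gave 1 symbol for 23978 probes and none for 1719.

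Equal replicate numbers were checked as pairs from the correlation, across probes, of deviations from group means. It was 0.37 to 0.85 in the 7 resting and contracted knockout pairs, all over 0.1, which were taken as paired. The own number gave the highest correlation in 5 of these 7, while replicates 3 and 5 correlated best with numbers 6 and 2. In wild type it was -0.06 to 0.52, with 5 of 7 over 0.1, and between genotypes -0.29 to 0.56. Alternatives were another normexp offset, no normexp, a stricter limit, no filter, 1 probe a gene, only the groups compared, array weights, cyclic loess, the replicate block and leaving out each sample. Leaving out the samples that stood apart by marker genes, and a block fit on knockout samples alone, were added after seeing the data.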

Additional observations from a re-analysis of the deposited data

Results flagged for a closer look

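Of the 16 groups of 7 values tested (4 interpreted probes in 4 groups), 1 held a sample far from the others, and chance flags about 1 in 20 groups. Stk11 in contracted wild-type replicate 4 was at a log2 intensity of 10.10, while the other 6 samples lay between 10.47 and 10.53. The gap was 0.857 of the group's range, above Dixon's critical value for 7 samples. The same sample had a summed slow-fibre intensity of 33440, the lowest of its group, and the part of fibre composition in its Stk11 value was not tested.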

How the results depend on the processing

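The Stk11 difference was called under every setting run. It ranged from -1.52 to -1.35 at rest and from -1.64 to -1.44 after contraction over 9 other processing settings, and from -1.42 to -1.30 and from -1.54 to -1.43 when each sample was left out in turn. No partner probe was called in any comparison under these settings. The replicate block (sample numbers within a genotype for contraction, and across genotypes, where they are not pairs, for the genotype comparisons) changed no call of a member or listed gene: Stk11 stayed at -1.36 (adjusted p = 6.97e-07) at rest and -1.48 (adjusted p = 1.45e-07) after contraction, with limma. Listed genes called numbered 3 at rest (Prkag1, Prkcz, Snrk) and 5 after contraction (also Prkaa2 and Prkab2) with array weights, and 0 and 1 when the 9 samples with high lymphocyte markers were left out, and 2 and 4 without the 4 high in macrophage markers, both chosen after seeing the data. Leaving out single samples gave 1 at rest throughout and 2 to 4 after contraction, with 2 without contracted knockout replicate 1 and 4 without contracted knockout replicate 2, where Snrk was added. The cause of these changes was not tested.

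Differences that were never called and lay near 0 changed sign. With array weights the dimmer Stradb probe was at 0.00 for contraction in wild type and the brighter at 0.07 for the difference between responses. Without the 9 samples the brighter probe was at -0.02 for contraction in wild type and 0.03 for the difference, and the dimmer at 0.06 for contraction in wild type. Without the 4 samples Stk11 was at -0.04 for contraction in knockout, the dimmer Stradb probe at 0.00 for genotype at rest and the brighter at 0.00 for the difference. Leaving out single samples gave -0.09 to 0.02 for the dimmer Stradb probe on contraction in wild type and -0.04 to 0.09 on genotype at rest, -0.03 to 0.13 for the brighter on contraction in knockout, and -0.06 to 0.07 for Stk11 on contraction in knockout. Of 731 recomputed member differences (apart from the exclusions chosen later) 715 kept direction and call, as did 219 of 222 for the called listed genes. Fitting only the groups compared gives no value for the difference between responses. Strada and Cab39 are limited by signal over background.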
